A study of Homo sapiens with 16 samples.

Results

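The subunits of the respiratory chain and of the mitochondrial ATP synthase that are encoded in the nucleus were followed in HepG2 cells, a human hepatoma line, after transduction with adenovirus. The members were the probe sets whose single gene symbol began with NDUFA, NDUFB, NDUFC, NDUFS or NDUFV, with UQCR, with ATP5, or with COX and a digit of the structural subunits, or was CYC1 or an SDH gene. Assembly factors named NDUFAF were left out. The rule took 102 of 22283 probe sets, which stood for 69 of the 11963 genes with a probe set of their own. A gene was read by its brightest probe set with a single symbol and was tested where the mean signal of that probe set over all arrays reached 208.5, the 40th percentile of probe sets. That left 67 members among 8109 genes tested: 28 of complex I, 3 of complex II, 7 of complex III, 12 of complex IV and 16 of complex V, plus ATP5MC2P1, a pseudogene that belongs to no complex. COX7A1 and the antisense transcript NDUFB2-AS1 did not reach the filter and were not tested as genes. Of the 4 SDH genes only SDHA, SDHC and SDHD had a probe set that met the rule, and the subunits encoded by mitochondrial DNA are not covered by it.

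The cells carried an adenovirus expressing GPI-PLD, the phospholipase D that cleaves glycosylphosphatidylinositol anchors, or an adenovirus expressing LacZ, the bacterial beta-galactosidase that served as the control. Cells were cultured for 12 h or 6 h, which gave the groups GPI-PLD 12 h, GPI-PLD 6 h, LacZ 12 h and LacZ 6 h with 4 arrays each. Every array received 10 µg of total RNA, labelled with biotin. All 16 arrays come from transduced cells of this line: there was no untransduced group, so time after transduction and time in culture cannot be told apart. The promoter of the viral inserts and the share of cells transduced are not given in the sources used here. The labels leave unsaid whether arrays of one group represent independent cultures, and a p-value therefore reflects only the spread between these arrays, which may be technical. GPLD1, the gene of the GPI-PLD enzyme, passed the test between the viruses on none of its 5 probe sets (limma, Benjamini-Hochberg adjusted p of 0.913 or more), so the array does not check the virus labels, and GPI-PLD cells here are cells labelled as having received that virus. Whether these probe sets match the insert is not given in the sources used here.

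Complexes I, III and IV pass electrons from NADH through ubiquinone and cytochrome c to oxygen and pump protons out of the mitochondrial matrix as they do so, complex II feeds electrons from succinate into the same chain without pumping, and complex V lets the protons back in to make ATP. Complexes I, III, IV and V each join protein made inside the mitochondrion, which sits in the inner membrane, to many nuclear-encoded subunits. Among the nuclear-encoded subunits are small ones that stabilise the complex and are needed for its assembly. Hepatocytes rely on this machinery for most of their ATP, whereas hepatoma lines also run a high rate of glycolysis.

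Many of the subunit transcripts were lower at 12 h than at 6 h under each virus, and no subunit separated GPI-PLD from LacZ cells at either time after adjustment over all genes. Limma was fitted to log2(signal + 62.8), and a gene passed where its p, adjusted by Benjamini-Hochberg over all 8109 genes of a comparison, was under 0.05. In GPI-PLD cells 27 of the 67 members fell between the times and 0 rose, a share of 40.3% lower, where 5.06% of all 8109 genes fell and 4.59% rose. In LacZ cells 13 of 67 fell and 0 rose, a share of 19.4% lower, where 3.26% of all genes fell and 3.64% rose. Because 59 of the 67 members lay in the top quartile of tested genes by signal, the share in that quartile is given too: 12.6% of its 2028 genes fell in GPI-PLD cells and 9.17% in LacZ cells. The median log2 difference, 12 h minus 6 h, was -0.25 over the members in GPI-PLD cells, against 0.013 over all genes and -0.056 over the top quartile. In LacZ cells it was -0.18 over the members, against 0.005 over all genes and -0.038 over the top quartile. Every array received 10 µg of total RNA, and the arrays have the same trimmed mean signal. Less transcript of these genes per cell and a larger amount of other RNA, or a change in the mix of cells, therefore cannot be told apart.

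The differences were small and spread over many members. The log2 difference was below 0 for 62 of 67 members (92.5%) in GPI-PLD cells, against 48.4% of all genes and 59.8% of the top quartile, and for 55 of 67 (82.1%) in LacZ cells, against 49.4% of all genes and 57.4% of the top quartile. All 4 arrays at 12 h lay below all 4 arrays at 6 h for 33 members (49.3%) in GPI-PLD cells, against 7.86% of all genes and 17.6% of the top quartile, and for 19 members (28.4%) in LacZ cells, against 6.25% of all genes and 13.9% of the top quartile. The largest fall was that of NDUFA2 in GPI-PLD cells, 1.55-fold on the scale of signal + 62.8. The time comparisons rest on different arrays, but all arrays were fitted together and a gene has the same variance estimate in both. Calls made in both comparisons are therefore not fully independent. In both comparisons 11 members fell. They are 40.7% of the members that fell in GPI-PLD cells and 84.6% of those that fell in LacZ cells. The matching overlap over all tested genes was not computed, so these shares have no background. The 11 were NDUFA2, NDUFB3 and NDUFB4 of complex I, UQCRQ and UQCR10 of complex III, COX6B1, COX7B and COX8A of complex IV, and ATP5PD, ATP5MG and ATP5MJ of complex V. NDUFAB1 and ATP5IF1 passed in LacZ cells and not in GPI-PLD cells. Over the 67 genes the 2 time differences had a Pearson r of 0.46 and a Spearman rho of 0.47, and r was 0.41 over all tested genes, given as a description across genes of one cell line, which are not independent.

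**Figure D1:**
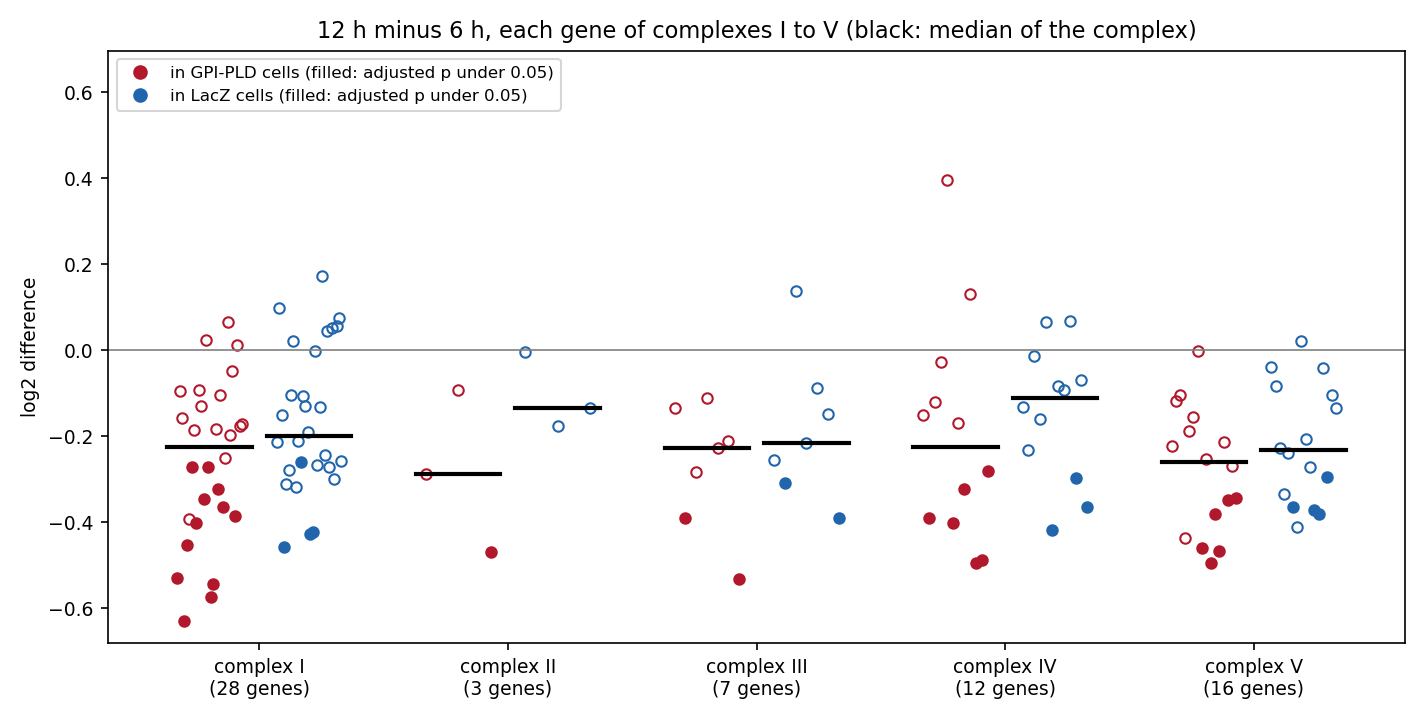
Log2 difference, 12 h minus 6 h, of each tested subunit gene (points) by complex, in GPI-PLD cells (red, left in each pair) and LacZ cells (blue, right), with filled points for adjusted p under 0.05 and a black bar at the median of the complex. Filled points are all below 0: 27 in GPI-PLD cells and 13 in LacZ cells.

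The promoters of these genes were read for 3 motifs that are known from nuclear genes of the respiratory chain: the NRF1 motif CGCNTGCGC, the ETS motif CCGGAAG, to which the GABP factor binds, and the YY1 motif AAGATGGCG. RefSeq windows of GRCh38.p14, from 250 bases before to 50 after a transcription start, were available for 59 of the member genes (72 windows), and both strands were searched. A window can hold more than 1 of the motifs. The NRF1 motif stood in 27.8% of member windows, against 7.52% of all 35116 windows. The ETS motif stood in 26.4% of member windows, against 10.3% of all, and the YY1 motif in 12.5%, against 1.75% of all. Among the 11 members that fell under both viruses, each with 1 window, the shares were 27.3% for NRF1, 45.5% for ETS and 0% for YY1. Among the members that fell under at least one virus (33 windows of 29 genes) the shares were 33.3% for NRF1, 24.2% for ETS and 6.06% for YY1. Among the tested members that passed under neither virus (38 windows of 29 genes) they were 23.7% for NRF1, 28.9% for ETS and 18.4% for YY1. The ETS share was thus higher than in the members that passed under neither virus for the 11 genes and lower for the 29. These are matches of letters, described without a test. The windows of all genes include those of genes not tested here, and shares over tested genes or over the top quartile by signal were not computed. The member windows include that of the antisense transcript NDUFB2-AS1. The 4 windows below belong to members whose arrays are described further on: NDUFB4 and ATP5MJ fell under both viruses and have the NRF1 motif in capitals, UQCRQ fell under both and has the ETS motif in capitals, and NDUFS1, a core subunit that did not pass under either virus, has the ETS motif in capitals on the opposite strand, where it reads CTTCCGG. They lie at chr3:120596086-120596385 (+) for NDUFB4, chr14:103921480-103921779 (-) for ATP5MJ, chr5:132866392-132866691 (+) for UQCRQ and chr2:206159395-206159694 (-) for NDUFS1.
NDUFB4: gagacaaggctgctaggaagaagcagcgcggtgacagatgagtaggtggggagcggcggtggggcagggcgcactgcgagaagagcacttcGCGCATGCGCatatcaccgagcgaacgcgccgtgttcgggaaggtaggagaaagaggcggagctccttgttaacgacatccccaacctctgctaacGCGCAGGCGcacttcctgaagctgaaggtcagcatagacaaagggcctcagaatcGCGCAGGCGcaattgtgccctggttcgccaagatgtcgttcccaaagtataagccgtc
ATP5MJ: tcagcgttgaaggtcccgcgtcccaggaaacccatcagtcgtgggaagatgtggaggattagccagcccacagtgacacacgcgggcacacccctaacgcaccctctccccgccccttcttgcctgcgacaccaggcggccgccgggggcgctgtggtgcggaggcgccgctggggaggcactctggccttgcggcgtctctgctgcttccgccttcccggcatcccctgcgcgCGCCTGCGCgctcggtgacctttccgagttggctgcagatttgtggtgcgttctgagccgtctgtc
UQCRQ: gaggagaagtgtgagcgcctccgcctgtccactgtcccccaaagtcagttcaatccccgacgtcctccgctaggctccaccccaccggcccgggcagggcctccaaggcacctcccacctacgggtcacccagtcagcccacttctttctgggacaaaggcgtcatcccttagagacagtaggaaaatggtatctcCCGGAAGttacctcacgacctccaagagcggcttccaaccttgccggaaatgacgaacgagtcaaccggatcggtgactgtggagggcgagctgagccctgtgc
NDUFS1: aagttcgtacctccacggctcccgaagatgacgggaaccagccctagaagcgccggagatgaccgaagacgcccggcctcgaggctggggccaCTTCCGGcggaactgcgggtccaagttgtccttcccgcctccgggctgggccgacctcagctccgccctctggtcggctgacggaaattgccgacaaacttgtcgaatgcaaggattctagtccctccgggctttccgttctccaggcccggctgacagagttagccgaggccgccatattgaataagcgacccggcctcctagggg
The NDUFB4 window holds 4 matches to the NRF1 motif, of which a pair overlap in 1 stretch read on both strands, and the ATP5MJ window holds 1, while the UQCRQ and NDUFS1 windows hold 1 copy each of the ETS motif. The ETS motif thus stood in the window of a gene that passed under both viruses and in a window of a gene that passed under neither. The windows shown were picked because they hold the motif. The other NDUFS1 window, at chr2:206159160-206159459 (-), lacks the ETS motif.

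Complex I, the NADH dehydrogenase, had 12 of 28 members that fell in GPI-PLD cells (median log2 difference -0.23) and 4 of 28 in LacZ cells (median -0.20). All 12 were accessory subunits, which do not carry out electron transfer themselves (12 of 23 accessory genes, median -0.27). None of the 5 core subunits measured, NDUFS1, NDUFS3, NDUFS7, NDUFV1 and NDUFV2, passed in GPI-PLD cells, where their median was -0.17, and none passed in LacZ cells, where it was 0.045. The difference between core and accessory genes was not tested. NDUFB4, a membrane-arm accessory subunit with the smallest p of all members in both time comparisons, read 6184, 6229, 5852 and 6644 on the GPI-PLD 12 h arrays and 8664, 8975, 9131 and 9629.9 on the GPI-PLD 6 h arrays. It read 6479.5, 7048, 7102 and 7425 on the LacZ 12 h arrays and 9319, 9157, 10400.4 and 8850.2 on the LacZ 6 h arrays. Under each virus the 12 h arrays were all below the 6 h arrays. The log2 difference of NDUFB4 was -0.54 ± 0.075 (SE) in GPI-PLD cells and -0.42 ± 0.075 in LacZ cells (limma, Benjamini-Hochberg adjusted p = 2.89e-05 in GPI-PLD cells and 0.000683 in LacZ cells).

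NDUFA2, an accessory subunit of the matrix arm near the NADH-binding end, had signals of 2848, 3287, 3174 and 3168 at 12 h, against 4992, 5264, 4555 and 4634 at 6 h in GPI-PLD cells. In LacZ cells it had 2990.1, 3439, 4043 and 3403 at 12 h, against 4847, 4666, 5539.6 and 4096 at 6 h. The times did not overlap under either virus, though in LacZ cells the highest 12 h array and the lowest 6 h array were close to each other. Its log2 difference was -0.63 ± 0.10 in GPI-PLD cells and -0.46 ± 0.10 in LacZ cells (limma adjusted p = 0.00017 in GPI-PLD and 0.0055 in LacZ cells). NDUFA2 has a second, dim probe set with log2 differences of 0.95 in GPI-PLD cells and -0.56 in LacZ cells, neither of which passed. The mean of both probe sets gave NDUFA2 a log2 difference of 0.16 in GPI-PLD cells, with the opposite sign and limma adjusted p = 0.787, and one of -0.51 in LacZ cells that did not pass (limma adjusted p = 0.318).

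NDUFB3, another membrane-arm accessory subunit, averaged 5259.5 ± 514 at 12 h, against 7868 ± 804 at 6 h in GPI-PLD cells (SD, n = 4 each). It averaged 5933 ± 181 at 12 h, against 8023 ± 704 at 6 h in LacZ cells. The times did not overlap under either virus, and the log2 differences were -0.58 ± 0.090 in GPI-PLD cells and -0.43 ± 0.090 in LacZ cells (limma adjusted p = 0.000114 in GPI-PLD and 0.00365 in LacZ cells). NDUFA1, a small membrane-spanning accessory subunit encoded on the X chromosome, read 4549.8, 5334, 5769 and 5069 at 12 h, against 6696, 7714, 7564 and 8023 at 6 h in GPI-PLD cells. The 12 h arrays were again all lower, with a log2 difference of -0.53 ± 0.091 (limma adjusted p = 0.000345). In LacZ cells NDUFA1 averaged 5908 ± 459.7 at 12 h, against 6864 ± 607 at 6 h, a difference of -0.21 ± 0.091 that did not pass (limma adjusted p = 0.181).

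The other complex I genes that passed in GPI-PLD cells were NDUFA3, NDUFA6, NDUFA8, NDUFB1, NDUFB2, NDUFB6, NDUFB8 and NDUFS6, with log2 differences between -0.45 for NDUFA3 and -0.27 for NDUFA6. NDUFS6 is a zinc-binding subunit and NDUFA8 a disulfide-rich protein of the intermembrane space. NDUFAB1, the mitochondrial acyl carrier protein, which also serves mitochondrial fatty acid synthesis, was the complex I gene that passed in LacZ and not in GPI-PLD cells. In GPI-PLD cells NDUFAB1 differed by -0.13 ± 0.064 with overlapping arrays (limma adjusted p = 0.229). It read 20557, 21710.4, 20383 and 21512 at 12 h, against 24004, 25600.4, 25381 and 25781 at 6 h in LacZ cells, without overlap and with a log2 difference of -0.26 ± 0.064 (limma adjusted p = 0.0126).

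NDUFS1, the largest iron-sulfur subunit of the core, read 3914, 4172, 4338 and 4569 at 12 h, against 4098, 3864, 3761 and 4529 at 6 h in GPI-PLD cells. In LacZ cells NDUFS1 read 4036, 4358, 4558 and 4278 at 12 h, against 4011, 4224, 4293 and 4148 at 6 h. The 4 groups overlapped throughout. The 95% interval of the log2 difference was -0.11 to 0.24 in GPI-PLD cells and -0.13 to 0.22 in LacZ cells, so falls of the size seen for NDUFB4 lay outside both. NDUFV1, which binds NADH and the flavin, had intervals of -0.41 to 0.058 in GPI-PLD cells and -0.16 to 0.31 in LacZ cells. NDUFS3 had the smallest p of the core subunits in LacZ cells, with a log2 difference of -0.27 ± 0.085 and 12 h arrays all below the 6 h arrays (limma adjusted p = 0.0575).

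**Figure D2:**
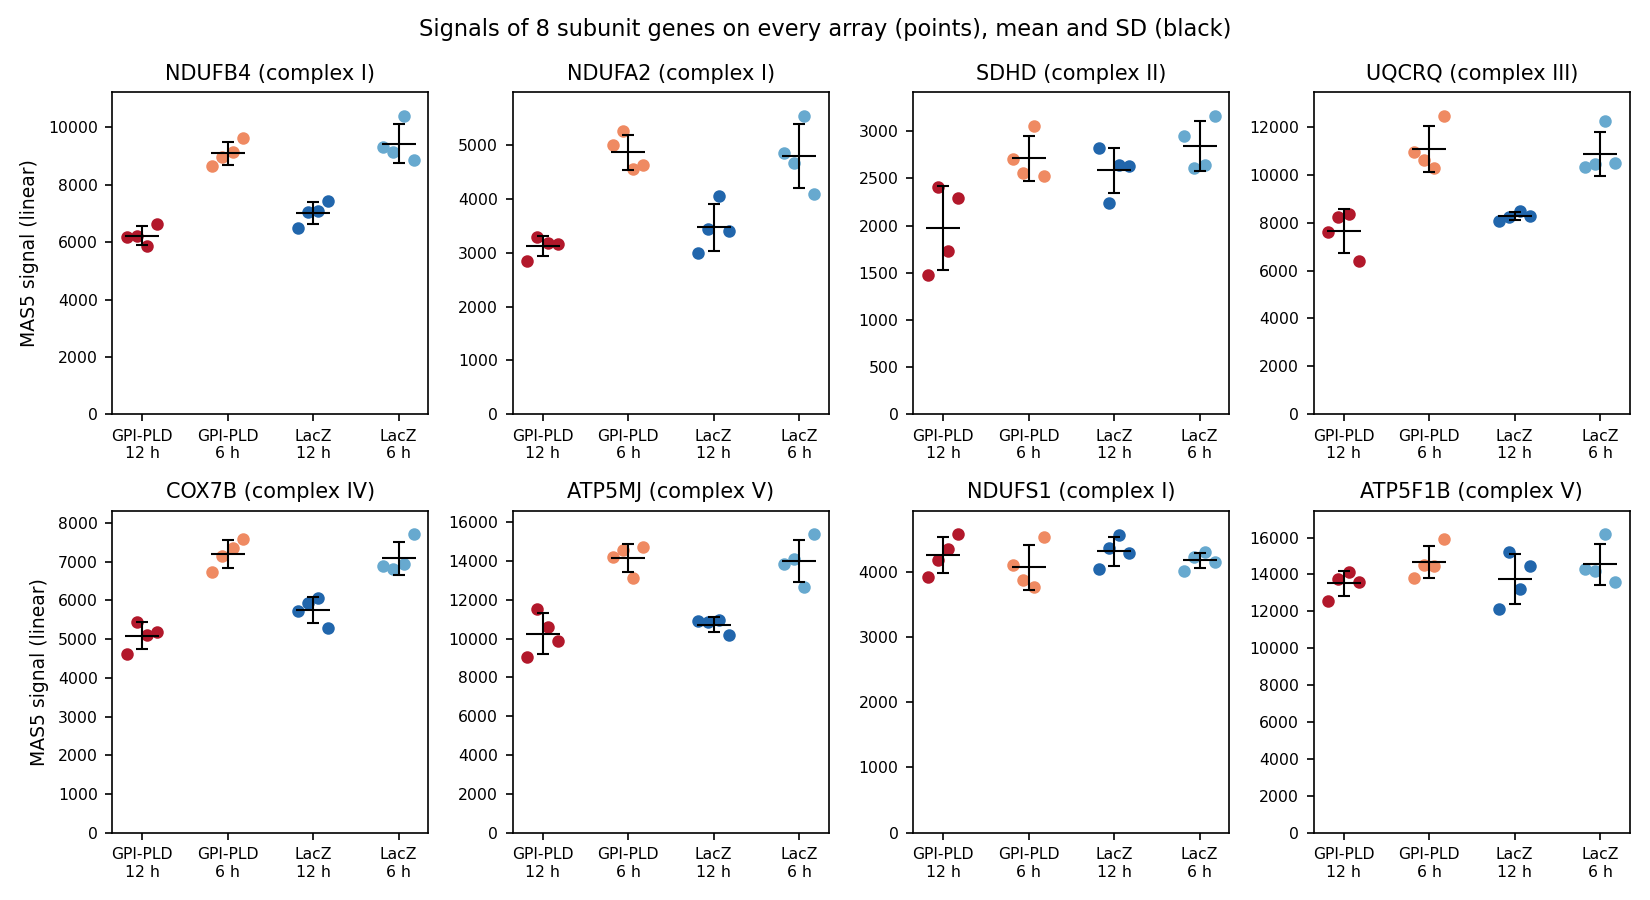
MAS5 signal (linear, from 0) of 8 subunit genes on each of the 4 arrays of a group (points), with the group mean and SD (black), for GPI-PLD 12 h, GPI-PLD 6 h, LacZ 12 h and LacZ 6 h from left to right. NDUFB4, NDUFA2, UQCRQ, COX7B and ATP5MJ were lower at 12 h under both viruses without overlap, SDHD was lower without overlap in GPI-PLD cells, and NDUFS1 and ATP5F1B overlapped.

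Complex II, succinate dehydrogenase, is the one complex here with no mitochondrially encoded subunit and also belongs to the citric acid cycle. SDHD, a membrane anchor that holds part of the haem and the ubiquinone site, read 1472, 2406, 1728 and 2289.6 at 12 h, against 2709, 2556, 3054 and 2523 at 6 h in GPI-PLD cells. SDHD read 2819, 2244, 2644 and 2628 at 12 h, against 2949, 2608, 2643 and 3162 at 6 h in LacZ cells. The GPI-PLD 12 h arrays were the most spread of the 4 groups and lay below the GPI-PLD 6 h arrays, while the LacZ groups overlapped. The log2 difference was -0.47 ± 0.13 in GPI-PLD cells (limma adjusted p = 0.0216) and -0.13 ± 0.13 in LacZ cells (limma adjusted p = 0.636). With every probe set outside the controls fitted, the SDHD difference in GPI-PLD cells missed the threshold (limma adjusted p = 0.0504), as it did without GPI-PLD 12 h replicate 1 (log2 -0.34, adjusted p = 0.0995), GPI-PLD 12 h replicate 3 (-0.42, 0.0651) or GPI-PLD 6 h replicate 3 (-0.41, 0.0838).

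SDHA, the flavoprotein that oxidises succinate, read 2582, 3561, 3652 and 3110.1 at 12 h, against 3741, 3863, 3993 and 4087 at 6 h in GPI-PLD cells. Its 12 h arrays were all lower, but the log2 difference of -0.29 ± 0.10 did not pass (limma adjusted p = 0.0852). Without GPI-PLD 12 h replicate 3 it did (-0.35, limma adjusted p = 0.0475), which was 1 of 26 alternatives, and it passed in no other. With 1 array left out the SDHA difference ran from -0.35 to -0.19, and over all alternatives the limma adjusted p reached 0.295. In LacZ cells SDHA averaged 3754 ± 225 at 12 h, against 3777 ± 417 at 6 h (SD, n = 4 each), a log2 difference of -0.004 ± 0.10. SDHC, the other membrane anchor, differed on its brightest probe set by -0.092 ± 0.10 in GPI-PLD and -0.18 ± 0.10 in LacZ cells, with overlapping arrays and no pass in either (limma adjusted p = 0.647 in GPI-PLD and 0.352 in LacZ cells). The next brightest probe set of SDHC averaged 4578 at 12 h, against 5764.5 at 6 h in GPI-PLD cells, without overlap. In LacZ cells it averaged 4562 at 12 h, against 5726 at 6 h, with overlap.

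Complex III, the cytochrome bc1 complex, had 2 of 7 members that fell in each virus, UQCRQ and UQCR10, with medians of -0.23 in GPI-PLD cells and -0.22 in LacZ cells. UQCRQ, a small subunit next to the ubiquinone site, read 7626, 8245, 8353 and 6388 at 12 h, against 10947, 10606, 10262 and 12455 at 6 h in GPI-PLD cells. It read 8081, 8217, 8497 and 8291 at 12 h, against 10308, 10452, 12258 and 10501 at 6 h in LacZ cells. Under both viruses the times were apart. The log2 difference was -0.53 ± 0.088 in GPI-PLD and -0.39 ± 0.088 in LacZ cells (limma adjusted p = 0.000244 in GPI-PLD and 0.0067 in LacZ cells). UQCR10, a small subunit beside cytochrome c1, averaged 17362 ± 1083 at 12 h, against 22797 ± 1529.5 at 6 h in GPI-PLD cells, without overlap, and 18058 ± 2298 at 12 h, against 22294 ± 1523 at 6 h in LacZ cells, with overlap (SD, n = 4 each). Its log2 difference was -0.39 ± 0.086 in GPI-PLD and -0.31 ± 0.086 in LacZ cells (limma adjusted p = 0.00398 in GPI-PLD and 0.0282 in LacZ cells). The LacZ call of UQCR10 was lost without any of 5 arrays, LacZ 12 h replicates 2 and 4 and LacZ 6 h replicates 1, 2 and 3 (adjusted p between 0.0649 and 0.118, log2 between -0.30 and -0.24).

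CYC1, the cytochrome c1 that hands electrons to cytochrome c, overlapped between the times under both viruses, with log2 differences of -0.14 ± 0.17 in GPI-PLD and -0.26 ± 0.17 in LacZ cells. The core proteins UQCRC1 and UQCRC2, which are related to processing peptidases and support the complex from the matrix side, did not pass on their brightest probe sets. UQCRC2 differed by -0.21 ± 0.070 in GPI-PLD cells with 12 h arrays all lower (limma adjusted p = 0.0577) and by -0.15 ± 0.070 in LacZ cells. A second, dimmer probe set of UQCRC2 read 5774 to 6114 at 12 h, against 7215 to 7843 at 6 h in GPI-PLD cells. In LacZ cells this probe set read 5960 to 6466 at 12 h, against 7086 to 8703 at 6 h, so the times were apart under both viruses. UQCR11, another small subunit, had values of opposite sign: -0.28 ± 0.099 in GPI-PLD cells and 0.14 ± 0.099 in LacZ cells, neither of which passed (limma adjusted p = 0.0777 in GPI-PLD and 0.487 in LacZ cells).

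Complex IV, cytochrome c oxidase, had 6 of 12 members that fell in GPI-PLD cells (median -0.22) and 3 of 12 in LacZ cells (median -0.11). Apart from COX7A2L, the complex IV members are supernumerary subunits or isoforms of them, since the 3 catalytic subunits are mitochondrially encoded. COX7B, a small membrane subunit, read 4615, 5450.4, 5104 and 5196 at 12 h, against 6726, 7138, 7352 and 7576 at 6 h in GPI-PLD cells. COX7B read 5739, 5922, 6070.2 and 5293 at 12 h, against 6894, 6802, 6939 and 7707 at 6 h in LacZ cells. The times were apart under both viruses, with log2 differences of -0.50 ± 0.079 in GPI-PLD and -0.30 ± 0.079 in LacZ cells (limma adjusted p = 0.000142 in GPI-PLD and 0.0207 in LacZ cells). COX7B missed the threshold in LacZ cells when replicate 4 of LacZ 12 h was left out (limma adjusted p = 0.0772) and likewise replicate 4 of LacZ 6 h (limma adjusted p = 0.0681).

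COX6B1, which lies on the cytochrome c side at the interface of the complex IV dimer, read 7279, 8550.4, 7680.2 and 9367 at 12 h, against 10593, 10974, 11012 and 10704 at 6 h in GPI-PLD cells. It read 7619.9, 8203, 8065 and 8227 at 12 h, against 9462, 11395, 12501 and 9866 at 6 h in LacZ cells. No 12 h array reached a 6 h array of the same virus. The log2 differences were -0.40 ± 0.089 in GPI-PLD and -0.42 ± 0.089 in LacZ cells (limma adjusted p = 0.00464 in GPI-PLD and 0.00435 in LacZ cells). COX8A, a single-helix membrane subunit, differed by -0.28 ± 0.084 in GPI-PLD cells, where arrays overlapped, and by -0.36 ± 0.084 in LacZ cells, where they did not (limma adjusted p = 0.0361 in GPI-PLD and 0.00789 in LacZ cells). In GPI-PLD cells the COX8A call was lost without any of GPI-PLD 12 h replicates 2, 3 and 4 or GPI-PLD 6 h replicates 1, 3 and 4 (adjusted p between 0.0583 and 0.133, log2 between -0.30 and -0.24).

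COX7C, COX5A and COX7A2 passed in GPI-PLD and not in LacZ cells. COX7C, a small membrane subunit, read 10749, 10709, 11364 and 12681 at 12 h, against 15009, 15977, 16603 and 16209 at 6 h in GPI-PLD cells. In LacZ cells it read 13674, 15156, 13959.6 and 14981 at 12 h, against 16339, 15659.6, 16189 and 12656 at 6 h. The GPI-PLD 12 h arrays were below every other array except LacZ 6 h replicate 4, which the highest of them passed slightly. Its log2 difference was -0.49 ± 0.083 in GPI-PLD and -0.068 ± 0.083 in LacZ cells (limma adjusted p = 0.000333 in GPI-PLD and 0.726 in LacZ cells). COX5A, a subunit on the matrix side, averaged 8104 ± 719 at 12 h, against 10614 ± 557 at 6 h in GPI-PLD cells and 8864 ± 93.1 at 12 h, against 10414 ± 269 at 6 h in LacZ cells (SD, n = 4 each). The log2 difference of COX5A was -0.39 ± 0.073 in GPI-PLD cells (limma adjusted p = 0.000929) and -0.23 ± 0.073 in LacZ cells, where it did not pass (limma adjusted p = 0.0581).

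Isoforms had unlike values, and the differences between them were not tested. COX7A2, the isoform of most tissues, differed by -0.32 ± 0.079 in GPI-PLD cells and passed (limma adjusted p = 0.00968), and by -0.092 ± 0.079 in LacZ cells without passing. COX7A2L, a related protein known to join complexes III and IV into supercomplexes, was 1 of 5 members above 0 in GPI-PLD cells, at 0.13 ± 0.073 (limma adjusted p = 0.3). The heart and muscle isoform COX7A1 stayed below the filter. COX6A1, the liver isoform, had overlapping arrays and differed by -0.027 ± 0.094 in GPI-PLD and -0.16 ± 0.094 in LacZ cells. COX6A2, the heart and muscle isoform, read 475, 595, 677 and 822 at 12 h, against 396, 545, 431 and 495 at 6 h in GPI-PLD cells and 383, 479, 437 and 407 at 12 h, against 389, 372, 355 and 515 at 6 h in LacZ cells. All of its values were low on this array and overlapped between times, and the differences of 0.40 ± 0.20 in GPI-PLD and 0.065 ± 0.20 in LacZ cells did not pass (limma adjusted p = 0.229 in GPI-PLD and 0.905 in LacZ cells). COX4I1, which takes part in the response of the enzyme to ATP, differed by -0.15 ± 0.090 in GPI-PLD and -0.13 ± 0.090 in LacZ cells and did not pass in either.

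Complex V, the ATP synthase, had 6 of 16 members that fell in GPI-PLD cells (median -0.26) and 4 of 16 in LacZ cells (median -0.23). The 3 measured subunits of the membrane sector that lie around the proton channel, ATP5ME, ATP5MG and ATP5MJ, all fell in GPI-PLD cells (median -0.47), and ATP5MG and ATP5MJ fell in LacZ cells. Of the 4 peripheral stalk subunits, ATP5PD and ATP5PO fell in GPI-PLD cells and ATP5PD in LacZ cells. None of the 5 subunits of the catalytic F1 head passed under either virus, with medians of -0.19 in GPI-PLD and -0.23 in LacZ cells. ATP5F1C was close to the threshold in LacZ cells, at -0.23 ± 0.070 (limma adjusted p = 0.0506). ATP5F1A differed by -0.22 ± 0.081 in GPI-PLD cells (limma adjusted p = 0.0886). For each of them the 12 h arrays were all lower there and overlapped under the other virus. Whether these sectors differ from one another was not tested.

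ATP5MJ, a small protein bound to the membrane sector, read 9059, 11499.6, 10592 and 9883 at 12 h, against 14193, 14583, 13109 and 14743 at 6 h in GPI-PLD cells. ATP5MJ read 10918, 10854, 10943 and 10169 at 12 h, against 13831, 14099, 12677 and 15368 at 6 h in LacZ cells. The 12 h arrays of both viruses lay below all 8 of the 6 h arrays. The log2 differences were -0.47 ± 0.080 in GPI-PLD and -0.38 ± 0.080 in LacZ cells (limma adjusted p = 0.000346 in GPI-PLD and 0.00365 in LacZ cells). ATP5ME, the e subunit, which with the g subunit holds ATP synthase dimers together, read 4325, 4387, 5187 and 5204 at 12 h, against 6701, 6244, 6608 and 7438 at 6 h in GPI-PLD cells, and 6999, 5230.2, 5119.5 and 5365 at 12 h, against 7317, 6764, 7088 and 6130.4 at 6 h in LacZ cells. LacZ 12 h replicate 1 lay among the 6 h values, whereas the GPI-PLD times were apart. The log2 difference of ATP5ME was -0.50 ± 0.10 in GPI-PLD cells (limma adjusted p = 0.00204) and -0.27 ± 0.10 in LacZ cells (limma adjusted p = 0.116).

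ATP5MG, the g subunit, averaged 11894 ± 1474 at 12 h, against 15419 ± 612 at 6 h in GPI-PLD cells and 12497 ± 671 at 12 h, against 16234 ± 1785 at 6 h in LacZ cells (SD, n = 4 each). It differed by -0.38 ± 0.088 in GPI-PLD and -0.37 ± 0.088 in LacZ cells, without overlap in either (limma adjusted p = 0.00611 in GPI-PLD and 0.00924 in LacZ cells). ATP5PD, the d subunit of the peripheral stalk, read 14638, 15368, 14640.1 and 14557 at 12 h, against 18765, 18617, 17689.7 and 20428 at 6 h in GPI-PLD cells. ATP5PD read 15164, 15317, 16926 and 15815 at 12 h, against 18189, 20387, 20888 and 18263 at 6 h in LacZ cells. The times were apart under both viruses, with log2 differences of -0.35 ± 0.070 in GPI-PLD and -0.30 ± 0.070 in LacZ cells (limma adjusted p = 0.00198 in GPI-PLD and 0.00972 in LacZ cells). ATP5PO, the oligomycin sensitivity protein that ties the stalk to the F1 head, differed by -0.34 ± 0.079 in GPI-PLD cells, where it passed (limma adjusted p = 0.00582), and by -0.13 ± 0.079 in LacZ cells, where it did not (limma adjusted p = 0.364).

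ATP5F1B, the catalytic beta subunit, read 12578, 13757, 14122 and 13597 at 12 h, against 13814, 14539.5, 14444 and 15898 at 6 h in GPI-PLD cells, and 12148, 15234, 13191 and 14469 at 12 h, against 14290.0, 14169, 16174 and 13602 at 6 h in LacZ cells. All 4 groups overlapped. The 95% interval of the log2 difference was -0.28 to 0.048 in GPI-PLD and -0.25 to 0.082 in LacZ cells. ATP5IF1, the inhibitor that stops the enzyme from hydrolysing ATP, read 2306, 1832, 2114 and 1971 at 12 h, against 2388, 2582, 2227 and 1999 at 6 h in GPI-PLD cells, with overlap, and 1788, 1841, 2045 and 1671 at 12 h, against 2174, 2604, 2524 and 2229 at 6 h in LacZ cells, without overlap. The log2 difference was -0.16 ± 0.11 in GPI-PLD cells (limma adjusted p = 0.413) and -0.37 ± 0.11 in LacZ cells (limma adjusted p = 0.041). Its call in LacZ cells was lost without any of 7 arrays, LacZ 12 h replicates 1, 2 and 4, LacZ 6 h replicates 2 and 3 and GPI-PLD 6 h replicates 1 and 3 (adjusted p between 0.0511 and 0.119, log2 between -0.37 and -0.32).

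The c-ring that turns in the membrane is built from one protein that 3 genes encode, ATP5MC1, ATP5MC2 and ATP5MC3, whose products differ only in the presequence that is removed on import. The transcripts had unlike values, which were not tested against each other. ATP5MC2 read 4386, 5796, 4813 and 5092 at 12 h, against 7078, 6454, 6797 and 7305 at 6 h in GPI-PLD cells, and 5763, 5807, 6064 and 5884 at 12 h, against 6562, 5255, 6076 and 5367 at 6 h in LacZ cells. The times were apart in GPI-PLD cells and overlapped in LacZ cells. The log2 difference of ATP5MC2 was -0.46 ± 0.090 in GPI-PLD cells (limma adjusted p = 0.00144) and 0.021 ± 0.090 in LacZ cells (limma adjusted p = 0.936). ATP5MC1 had differences of -0.001 ± 0.14 in GPI-PLD and -0.41 ± 0.14 in LacZ cells, and ATP5MC3 of -0.25 ± 0.090 in GPI-PLD and -0.21 ± 0.090 in LacZ cells, none of which passed (limma adjusted p between 0.07 and 0.997). With all probe sets of a gene averaged, the ATP5MC2 difference in GPI-PLD cells was -0.14 and did not pass. These genes and the pseudogene ATP5MC2P1 share coding sequence, and whether their probe sets read more than one of them was not tested.

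On each array, the level of a complex can be summarised as the median over its genes of the log2 level minus the gene's mean over the 16 arrays. For complex I this median was -0.24 to -0.12 on the GPI-PLD 12 h arrays and 0.11 to 0.13 on the GPI-PLD 6 h arrays, and -0.081 to -0.056 on the LacZ 12 h arrays and 0.002 to 0.16 on the LacZ 6 h arrays. For complex III it was -0.22 to -0.059 at 12 h, against 0.063 to 0.19 at 6 h in GPI-PLD cells, and -0.15 to -0.034 at 12 h, against 0.040 to 0.20 at 6 h in LacZ cells. For complexes I and III the times were thus apart under both viruses, and the same held for complex IV and complex V. Complex IV ran -0.22 to -0.062 at 12 h, against 0.11 to 0.17 at 6 h in GPI-PLD cells, and -0.12 to -0.044 at 12 h, against 0.007 to 0.15 at 6 h in LacZ cells. Complex V ran -0.16 to -0.12 at 12 h, against 0.057 to 0.19 at 6 h in GPI-PLD cells, and -0.16 to -0.044 at 12 h, against 0.069 to 0.22 at 6 h in LacZ cells. Complex II, with 3 genes, ran -0.49 to -0.046 at 12 h, against 0.021 to 0.27 at 6 h in GPI-PLD cells, and overlapped between the times in LacZ cells, at -0.060 to 0.078 at 12 h, against 0.032 to 0.34 at 6 h. The top quartile of genes by signal had medians of -0.054 to 0.005 at 12 h, against 0.014 to 0.044 at 6 h in GPI-PLD cells and of -0.037 to 0.009 at 12 h, against 0.012 to 0.057 at 6 h in LacZ cells. The times were apart under both viruses here too, a shift in the same direction as that of the subunits and smaller in value, whose part in the result was not tested.

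**Figure D3:**
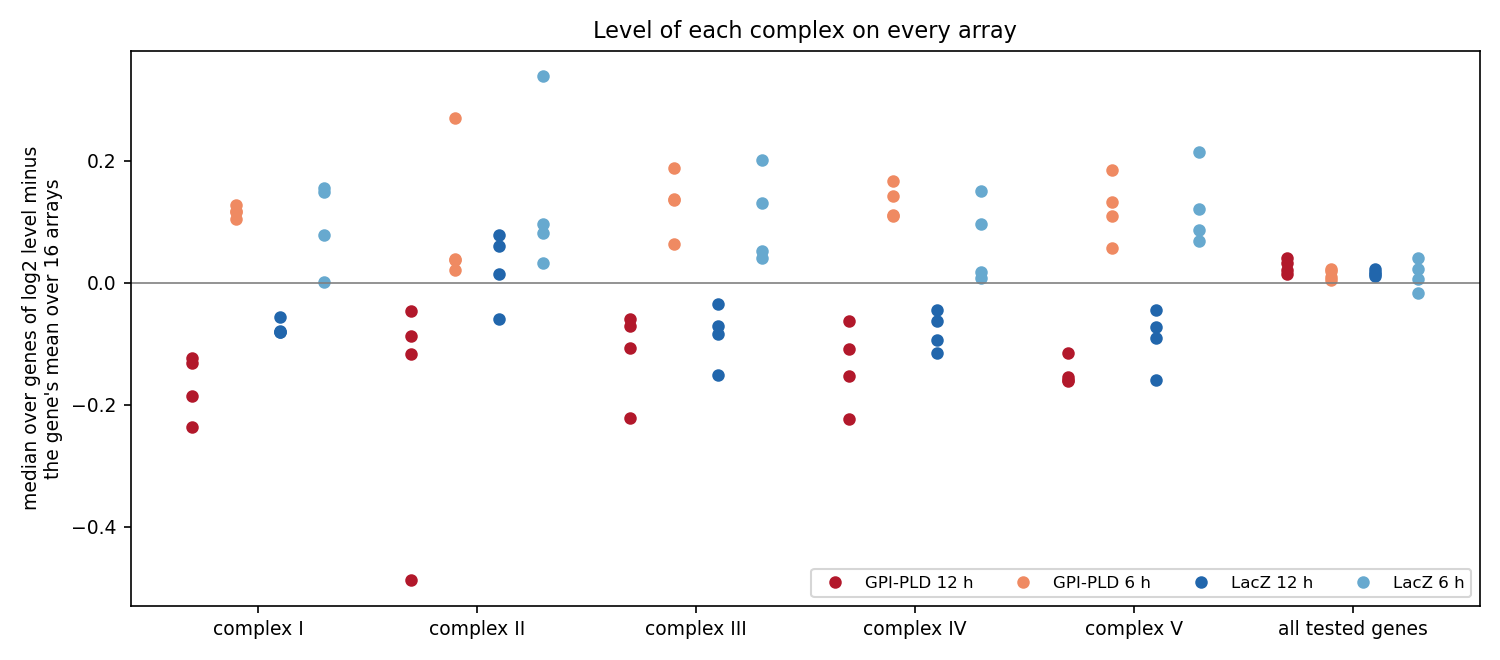
Median over the genes of each complex, and over all 8109 tested genes, of the log2 level minus the gene's mean over 16 arrays (y axis), with 1 point per array in the order GPI-PLD 12 h, GPI-PLD 6 h, LacZ 12 h and LacZ 6 h from left to right. In complexes I, III, IV and V the 12 h arrays of both viruses lie below 0 and the 6 h arrays above it.

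The comparison of the viruses addresses what GPI-PLD changes relative to LacZ. At 12 h 0 of 67 members passed (limma, Benjamini-Hochberg; 0% of all 8109 genes passed), and 0 passed with eBayes run without trend and robust. Of the 67 members, 47 (70.1%) had a log2 difference, GPI-PLD minus LacZ, below 0, against 48.5% of all genes and 52.6% of the top quartile by signal, and the median of the members was -0.085, against 0.006 over all genes. At an unadjusted p under 0.05 there were 12 members (17.9%), against 7.2% of all genes, and 11 of the 12 were lower (16.4% of members, against 3.5% of all genes and 5.62% of the top quartile). All 4 GPI-PLD arrays lay below all 4 LacZ arrays for 5 members (7.46%), against 1.85% of all genes and 3.6% of the top quartile. These counts share the 12 h arrays with the time comparisons above, so they are not separate evidence. By complex the medians at 12 h were -0.10 for I, -0.23 for II, -0.014 for III, -0.017 for IV and -0.085 for V.

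The members with the smallest p at 12 h were COX7C, NDUFB8 and SDHD, whose arrays are given above for COX7C and SDHD. COX7C averaged 11376 ± 920.4 in GPI-PLD 12 h and 14443 ± 736 in LacZ 12 h cells (SD, n = 4 each), without overlap and with a log2 difference of -0.35 ± 0.083 (limma adjusted p = 0.338). NDUFB8, a membrane-arm accessory subunit of complex I, read 4933, 5609, 5459 and 4879.8 in GPI-PLD 12 h and 7758, 6267, 6397 and 6015 in LacZ 12 h cells, again without overlap, a difference of -0.33 ± 0.097 (limma adjusted p = 0.45). SDHD differed by -0.40 ± 0.13 with overlapping arrays (limma adjusted p = 0.5). None of these differences passed over all genes. With the mean of all probe sets of a gene the difference at 12 h was -0.13 for COX7C and -0.043 for NDUFB8. COX6A2 was the one member higher at an unadjusted p under 0.05, by 0.51 ± 0.20 (limma adjusted p = 0.639).

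At 6 h 0 of 67 members passed by limma (0% of all genes) or with eBayes run without trend and robust. Of the 67, 38 had a difference above 0 and 29 below, and the median was 0.019, against 0.003 over all genes. The share below 0 was 43.3%, against 49.4% of all genes and 52.4% of the top quartile by signal. At an unadjusted p under 0.05 there were 3 members (4.48%), against 4.62% of all genes, which is near the background. They were ATP5MC1 at -0.38 ± 0.14, ATP5MC2 at 0.25 ± 0.090 and NDUFB8 at 0.21 ± 0.097 (limma adjusted p between 0.969 and 0.998). With the mean of all probe sets of a gene NDUFB8 stood at 0.006 and ATP5MC2 at 0.16. ATP5MC1 averaged 3259 ± 162 in GPI-PLD 6 h and 4328 ± 899 in LacZ 6 h cells (SD, n = 4 each), with 1 LacZ array far below the other 3.

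Whether time acted differently under the viruses was tested as the GPI-PLD minus LacZ difference at 12 h minus that at 6 h. By limma it passed for 0 of 67 members, where 0.0123% of all genes passed, that is, 1 gene. At an unadjusted p under 0.05 there were 6 members (8.96%), against 7.58% of all genes. The value was below 0 for 48 of 67 members (71.6%), against 49.7% of all genes and 51.6% of the top quartile by signal, with a median of -0.087 over the members and 0.002 over all genes. The larger count of falls in GPI-PLD than in LacZ cells therefore does not amount to a difference shown for any member. NDUFB8 had the smallest p, with a value of -0.54 ± 0.14 (limma adjusted p = 0.381), followed by ATP5MC2 at -0.48 ± 0.13 (limma adjusted p = 0.381) and COX7C at -0.42 ± 0.12 (limma adjusted p = 0.381). With the mean of all probe sets of a gene these values were -0.048 for NDUFB8, -0.12 for ATP5MC2 and -0.20 for COX7C. For NDUFB4 the 95% interval was -0.34 to 0.10, and for UQCRQ it was -0.40 to 0.12, so differences between the viruses of either sign remain possible at this number of arrays.

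**Figure D4:**
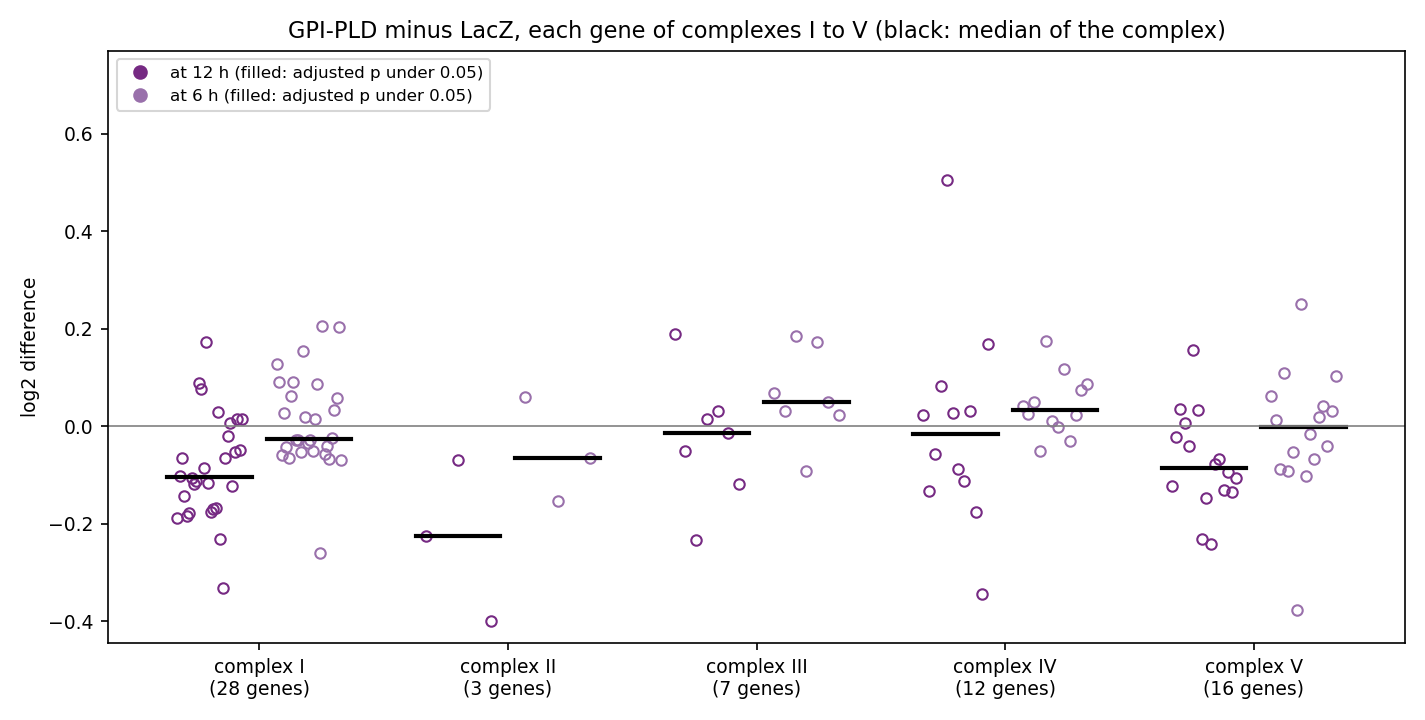
Log2 difference, GPI-PLD minus LacZ, of each tested subunit gene (points) by complex, at 12 h (dark, left in each pair) and 6 h (light, right), with a black bar at the median of the complex. No point is filled, since 0 members passed. The pseudogene ATP5MC2P1 is not drawn, and 46 of the 66 genes drawn lie below 0 at 12 h, against 29 at 6 h.

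Several genes were read by more than 1 probe set, and these did not always move together. Of the 16 genes with at least 2 probe sets above the filter, 13 had the same sign on all of them for time in GPI-PLD cells, 13 for time in LacZ cells and 8 for the virus difference at 12 h. ATP5MG was lower with time on all 4 of its probe sets, with log2 differences between -0.52 and -0.38 in GPI-PLD cells, all of which passed in the fit of every probe set (limma adjusted p between 0.0146 and 0.0296). SDHC was also lower on all 4, none of which passed. NDUFB8 was lower in GPI-PLD cells on its brightest probe set, at -0.37 (limma adjusted p = 0.0393), but the other two, in order of signal, stood at -0.096 and 0.047 and did not pass. In LacZ cells the NDUFB8 probe sets gave 0.17, -0.27 and -0.17 in the same order. COX7C passed in GPI-PLD cells on its brightest probe set, at -0.49, and not on the other two, at -0.22 and -0.16. The values of NDUFB8 and COX7C therefore belong to 1 probe set each. With the mean of all probe sets of a gene, 6 of the members that fell in GPI-PLD cells did not pass, beside NDUFA2: COX7C at -0.29, NDUFA6 at -0.26, NDUFB2 at -0.23, SDHD at -0.18, ATP5MC2 at -0.14 and NDUFB8 at -0.14. Of the 67 tested genes, 30 were read by a plain probe set, 30 by one with the suffix _s_at, which can match several transcripts, and 7 by one with the suffix _x_at, which can cross-hybridise, and many of these genes have processed pseudogenes. With every probe set outside the controls fitted, 28 member probe sets fell with time in GPI-PLD cells and 13 in LacZ cells, and 0 passed in the virus comparisons.

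**Figure D5:**
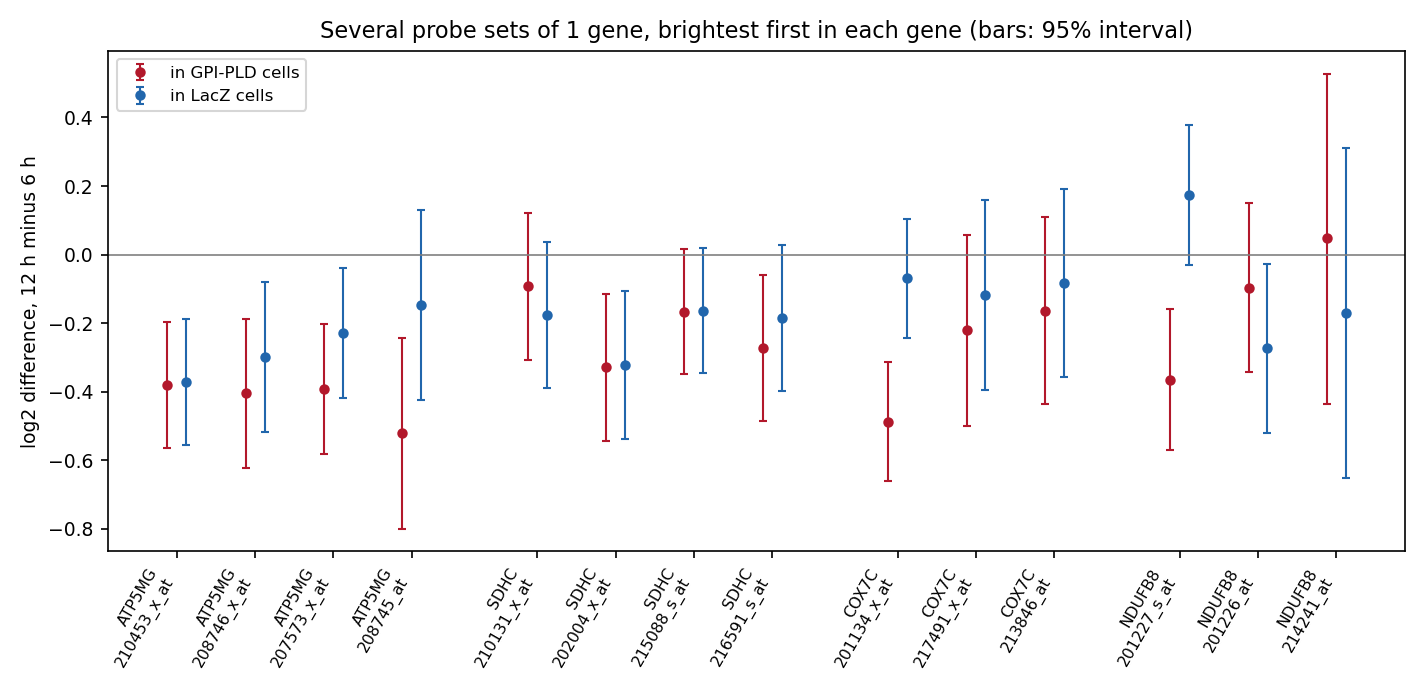
Log2 difference, 12 h minus 6 h, on each probe set of 4 genes (x axis, ordered by signal within a gene), in GPI-PLD cells (red, left) and LacZ cells (blue, right), with 95% intervals from limma as bars. The 4 ATP5MG probe sets lie below 0 under both viruses, while those of NDUFB8 differ in sign.

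Among the calls in GPI-PLD cells, those of 7 genes were lost when single arrays were left out. NDUFA6 was the least firm, lost without any of 12 of the 16 arrays: all but GPI-PLD 12 h replicate 4 and LacZ 6 h replicates 1, 3 and 4 (adjusted p between 0.052 and 0.119, log2 between -0.28 and -0.25). NDUFB1 lost its call without GPI-PLD 12 h replicate 1 or 3 or GPI-PLD 6 h replicate 3 or 4 (adjusted p between 0.0501 and 0.0611, log2 between -0.33 and -0.31). NDUFB2 lost it without GPI-PLD 12 h replicate 1 or 3 or GPI-PLD 6 h replicate 2 or 3 (adjusted p between 0.0547 and 0.0818, log2 between -0.26 and -0.25). The call of NDUFB6 did not hold without GPI-PLD 12 h replicate 1 or GPI-PLD 6 h replicate 2 or 3 (adjusted p between 0.0821 and 0.0865, log2 between -0.28 and -0.27). NDUFB8 missed the threshold without GPI-PLD 12 h replicate 1 or 4 or GPI-PLD 6 h replicate 3 (adjusted p between 0.0529 and 0.0841, log2 between -0.34 and -0.30). COX8A and SDHD are described above. With eBayes run without trend and robust, the calls of COX8A, NDUFA6, NDUFB2, NDUFB8 and SDHD in GPI-PLD cells missed the threshold (limma adjusted p between 0.0566 and 0.0969), as did those of ATP5IF1, ATP5MG, COX7B, NDUFAB1 and UQCR10 in LacZ cells (limma adjusted p between 0.0513 and 0.105). Fitting only the arrays compared ended the calls of COX8A and SDHD in GPI-PLD cells and of ATP5IF1 and UQCR10 in LacZ cells. Without the filter COX8A, NDUFA6 and ATP5IF1 missed the threshold, and with quantile normalization COX8A and NDUFA6 did.

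Other genes of mitochondrial energy metabolism passed in a few cases, to be read against the 5.06% of all genes and 12.6% of the top quartile that fell in GPI-PLD cells, and the 3.26% and 9.17% that fell in LacZ cells. Counts of 1 or 2 in lists of this size give only rough shares. The 2 of 13 membrane carriers and 2 of 15 complex IV assembly factors that fell under each virus are larger shares than those of all genes and of the top quartile. None of the 8 complex I assembly factors tested and none of the 7 assembly factors of complexes II, III and V passed in either time comparison. The complex I factors had medians of -0.078 in GPI-PLD and -0.21 in LacZ cells, with 4 and 7 of 8 below 0. Those of complexes II, III and V had medians of -0.076 in GPI-PLD and -0.15 in LacZ cells, with 5 and 7 of 7 below 0. In LacZ cells both medians were near the -0.18 of the subunits. Of 15 complex IV assembly factors, COA3, which acts early in making the COX1 subunit, fell in both: it averaged 5874 at 12 h and 9508 at 6 h in GPI-PLD cells, a log2 difference of -0.69 ± 0.11, and differed by -0.45 ± 0.11 in LacZ cells (limma adjusted p = 0.000228 in GPI-PLD and 0.0159 in LacZ cells). COX11, which delivers copper to the enzyme, fell in GPI-PLD cells (-0.43 ± 0.10, limma adjusted p = 0.00746), and TACO1, a translational activator of COX1, fell in LacZ cells (-0.68 ± 0.13, limma adjusted p = 0.00146). Among 15 genes of electron carriers and ubiquinone synthesis, ETFB fell in GPI-PLD cells (-0.36 ± 0.11) and ETFA in LacZ cells (-0.27 ± 0.073), the partner subunits of the flavoprotein that carries electrons from fatty acid oxidation. Of 20 citric acid cycle and pyruvate dehydrogenase genes 0 passed in either, with medians of -0.055 in GPI-PLD and -0.017 in LacZ cells. Of 13 membrane carriers, MPC2, a subunit of the pyruvate carrier, and VDAC3, an outer membrane channel, fell under both viruses: MPC2 by 0.27 in GPI-PLD and 0.32 in LacZ cells, and VDAC3 by 0.42 in GPI-PLD and 0.30 in LacZ cells, on the log2 scale. The carriers had medians of -0.19 in GPI-PLD and -0.093 in LacZ cells, with 12 and 10 of 13 below 0. Of 18 regulators of mitochondrial biogenesis and transcription, SSBP1, the mitochondrial single-stranded DNA binding protein, fell in LacZ cells (-0.33 ± 0.076, limma adjusted p = 0.00671) and 0 passed in GPI-PLD cells. None of these genes rose, and 0 passed in either virus comparison. The medians of the complex IV assembly factors, the electron carrier list and the regulators lay between -0.088 and 0.066 over both time comparisons. Whether these lists differ from the subunits was not tested.

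The median signal of an array was 338.1 to 377.6 in GPI-PLD 12 h, 313.4 to 337.1 in GPI-PLD 6 h, 323 to 352.5 in LacZ 12 h and 304.5 to 344.7 in LacZ 6 h cells, so that in GPI-PLD cells it was higher at 12 h without overlap. With each array scaled to a common 75th percentile, the count of subunits that fell in GPI-PLD cells was 28 and their median difference was -0.26. Correlations between arrays of one group were 0.941 to 0.944 for GPI-PLD 12 h and 0.953 to 0.965 for the other groups. The 3' to 5' ratio, a sign of RNA quality, lay between 0.864 and 1.12 for GAPDH and between 1.10 and 1.77 for ACTB. All 10 hepatocyte and hepatoma markers passed the filter, with summed signals of 458400 to 519900 in GPI-PLD 12 h, 443100 to 490400 in GPI-PLD 6 h, 446900 to 489200 in LacZ 12 h and 422800 to 469300 in LacZ 6 h cells. Endothelial markers, of which 1 of 4 passed the filter, summed to 525 to 745 in GPI-PLD 12 h, 187 to 552 in GPI-PLD 6 h, 600.2 to 833 in LacZ 12 h and 184 to 652 in LacZ 6 h cells. The single erythroid marker ran 502 to 789 in GPI-PLD 12 h and 278 to 501 in GPI-PLD 6 h, and 388 to 680.0 in LacZ 12 h and 268 to 505 in LacZ 6 h cells. Leukocyte markers (1 of 3 passed the filter) and fibroblast markers (4 of 5) overlapped between the times. The part of these markers in the results was not tested.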

How the data were processed

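Each array gave 1 intensity per probe set. The deposited intensities are linear MAS5 signals, per the submitters' processing notes. The scanner settings and other steps are not given in the sources used here. The arrays have the same trimmed mean in the deposited table, and no further scaling was applied. Groups were taken from the sample labels, and replicates were numbered in accession order, so a number pairs nothing. No batch is given in the labels.

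Of 22283 probe sets, 68 controls were left out, and probe sets were named through the platform annotation: 19065 have 1 symbol, 1043 several and 2107 none. A gene was read by its brightest probe set with a single symbol, and genes whose mean signal reached the 40th percentile (208.5) were tested. The log2 of signal plus a pseudocount of 62.8 (the 20th percentile) was fitted in limma 3.58.1 (R 4.3.3, statmod 1.5.0) with 4 group means, and eBayes was run with trend and robust (12 residual degrees of freedom). The p-values were adjusted by Benjamini-Hochberg over the 8109 genes of each comparison. Confidence intervals are at 95% and come from the same fit. Fold changes on this scale understate the change of dim genes. The number of arrays sets the precision.

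The members, the gene lists and the tests were chosen with earlier results of these data known. Named genes are the members that passed, those with the smallest p where few passed, 2 per complex and comparison, the SDH genes, isoform families and ATP5IF1, and in other lists the 2 with the smallest p. Alternatives changed the pseudocount, the filter, the normalization, the probe set of a gene, the variance model and the arrays in the fit. Scripts were tested on simulated data. Promoter windows were read from RefSeq (GRCh38.p14) with Python 3.11.15 and pandas 2.3.3, and figures were drawn with matplotlib 3.10.9.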

Additional observations from a re-analysis of the deposited data

Results flagged for a closer look

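In 10 of 140 groups of 4 arrays looked at for 35 genes, 1 array stood far from the other 3. Chance gives about 5% of groups, which is near the share found, and no explanation of a single array was tested. In LacZ 12 h cells, ATP5ME read 6999.3 on replicate 1, above the other 3 arrays at 5119.5 to 5364.9, ATP5MJ read 10168.8 on replicate 4, below the others at 10854.2 to 10942.7, and NDUFA1 read 6595.1 on replicate 4, above the others at 5634 to 5723. In LacZ 6 h cells, replicate 4 stood apart for 3 genes: COX7B read 7706.6, above the others at 6802.3 to 6939, COX7C read 12655.7, below the others at 15659.6 to 16338.8, and UQCR10 read 20018.3, below the others at 22931.2 to 23248.6. Also in LacZ 6 h cells, ATP5MC1 read 2991.1 on replicate 1, below the others at 4684 to 4946.7, and UQCRQ read 12257.9 on replicate 3, above the others at 10307.7 to 10501.3. In GPI-PLD cells, ATP5PD read 15367.9 on replicate 2 at 12 h, above the others at 14556.6 to 14640.1, and ATP5MG read 16329.8 on replicate 2 at 6 h, above the others at 15010.4 to 15186.4. The low ATP5MC1 array enters the virus difference at 6 h and the time difference in LacZ cells, neither of which passed.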

How the results depend on the processing

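The count of subunit genes that passed for time in GPI-PLD cells was 27 and ran from 22 to 30 over the alternatives with all arrays, and from 20 to 29 with 1 array left out. In LacZ cells the count was 13, fell to 8 with eBayes without trend and robust, reached 20 with each array scaled to the 75th percentile, and ran from 11 to 16 with 1 array left out. The median log2 difference moved by more than the spread between arrays in 3 cases: to -0.207 with quantile normalization for time in GPI-PLD cells, to -0.227 with scaling to the 75th percentile for time in LacZ cells, and to -0.046 with the same scaling for the difference between the viruses' time effects. With 1 array left out the medians ran from -0.258 to -0.239 for time in GPI-PLD cells, from -0.191 to -0.159 for time in LacZ cells, from -0.122 to -0.063 for the difference, from -0.095 to -0.055 for the virus at 12 h and from -0.003 to 0.028 for the virus at 6 h. The counts for both virus comparisons and for the difference were 0 under every alternative run. Of 75 gene differences followed, 40 passed, and 24 of these passed in every alternative. Taking the mean of all probe sets of a gene turned 3 signs: NDUFA2 for time in GPI-PLD cells (0.161), SDHD for time in LacZ cells (0.02) and ATP5MC2 for the virus at 12 h (0.043); the cause was not tested. No paired analysis was possible because the labels give no replicate numbers. Each test rests on 4 arrays a group, and the pseudocount understates the change of dim genes.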
